A study of Mus musculus with 12 samples.

Results

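The 10 genes described here encode the ion exchangers, water channels, carbonic anhydrases and chloride channel by which the colonocyte, the absorptive cell of the colon surface, moves anions, water and protons. They are Slc26a3, Slc26a2, Slc9a3, Slc9a2, Aqp8, Aqp4, Car1, Car2, Car4 and Cftr. Each was selected by its gene symbol and matched exactly 1 of the 54532 genes in the count table. All 10 were among the 16904 genes that passed the filter on low counts.

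RNA-Seq was performed on colon tissue of wild-type (WT), male, 5-week-old C57BL/6J mice, in 12 libraries. The control libraries are labelled as control. The model libraries came from mice with acute colitis induced by dextran sulfate sodium (DSS), a polymer that injures the colon epithelium. The Rhy libraries came from mice given DSS and rhynchophylline (Rhy), a plant alkaloid. The study used Rhy at 2, 4 and 8 mg/kg, and the labels do not name the dose of the sequenced mice. The DXM libraries came from mice given DSS and dexamethasone (DXM), a glucocorticoid, at 4 mg/kg. Each of the 4 groups had 3 libraries. The labels do not say that each library came from a separate mouse, so the p-values measure the spread between these libraries only. They also do not say from which position along the colon the sampled sections were cut. Total counts per library ranged from 14346478 to 17749716, with a median of 16383435. The lowest count of any member in any library was 194, of Aqp4 in DXM 1.

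In the colon, electroneutral salt absorption runs through an apical sodium-proton exchanger working beside an apical chloride-bicarbonate exchanger, and water follows the salt. Carbonic anhydrases supply both exchangers by turning carbon dioxide and water into bicarbonate and a proton. The same epithelium secretes chloride through an apical channel, and the balance of absorption and secretion sets how much fluid stays in the lumen.

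Before the members are described, 4 features of the libraries bear on the values. First, model 1 and model 2 nearly coincided. A common dispersion, the variance between libraries past what counting gives, was 0.00201 for them and 0.0604 to 0.351 for the other 65 pairs. They were not identical, since over 12746 genes with a mean of at least 50 counts the median variance was 1.98 times that of counting alone. Repeat preparations from 1 mouse could differ as much, so whether the 2 libraries come from 1 mouse or 2 cannot be told apart here. Both were kept as labelled, and the main results that rest on the model group are also given with their counts summed into 1 library.

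The second feature is Hoxb13, a homeobox gene of the most distal colon. It had 155, 72.0 and 0.165 CPM (counts scaled by library size) in control 1 to 3, 226, 205 and 1.49 in model 1 to 3, 0, 316 and 230.5 in Rhy 1 to 3 and 221, 195 and 236 in DXM 1 to 3. Thus control 3, model 3 and Rhy 1 lay under 5 CPM and the other 9 libraries at 72.0 to 316 CPM. The 6 measured genes of a distal colon position list, all Hox genes of which Hoxb13 was the most abundant, summed to 220.2, 153 and 32.8 CPM in control 1 to 3, 381, 365 and 41.5 in model, 48.0, 445 and 406 in Rhy and 384, 279.6 and 486 in DXM. No gene of the list was at 0 in every library, and between 4 and 6 were detected per library. The sum for 8 Hox genes of more proximal gut was 58.3, 145 and 123 CPM in control 1 to 3. It was 127, 124 and 136 CPM in model 1 to 3 and 169, 42.1 and 47.9 CPM in Rhy 1 to 3. In DXM 1 to 3 it was 75.5, 50.9 and 30.2 CPM. In DXM against model, its 6 tested genes were all lower (median log2 fold change -1.32) and the 6 distal genes all higher (median 0.51). Of both lists, 0 were at an unadjusted p under 0.05 there in edgeR. The part of colon position in the values below was not tested, but the main results are given with and without the 3 libraries low in Hoxb13, a setting chosen after seeing the data.

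The third feature is the amount of epithelium. All 10 genes of an epithelial list (most abundant gene Krt8) were detected in every library, and summed to 18442 to 31671 CPM. The 10 genes of a surface colonocyte list (most abundant gene Lypd8, no gene at 0) summed to 21564, 21532 and 14595 CPM in control 1 to 3, 14529, 14637 and 14113 in model, 17696, 20488 and 15102 in Rhy and 16672, 12142 and 12696 in DXM. Control 1, control 2 and Rhy 2 were the libraries highest in it. In whole tissue, fewer cells of a type and less RNA per cell cannot be told apart, so a lower level below may be either.

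The fourth feature is the share of counts on mitochondrial genes. It was 21.0%, 17.0% and 6.33% in control 1 to 3, 13.4%, 14.0% and 11.1% in model, 23.8%, 15.2% and 8.90% in Rhy and 25.7%, 7.88% and 7.48% in DXM. Control 1, Rhy 1 and DXM 1 were the highest. Within control, the libraries stood in the same order by this share as by Slc26a3 and Aqp8. Within model this held for Slc26a3 only, and within DXM for Aqp8 only. Within Rhy it held for neither, and Rhy 1, with the highest share, had the lowest Slc26a3 of that group. The part of this share in the results was not tested.

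Levels were compared between genes on the deposited FPKM scale, which divides by gene length. By median over the 12 libraries, Car1 came first at 4972 FPKM, followed by Car2 (490.4 FPKM), Car4 (317), Aqp8 (273), Slc26a3 (101), Slc9a3 (55.0), Aqp4 (51.4), Slc26a2 (42.2), Slc9a2 (36.6) and Cftr (9.74). The ranges of all neighbours in this order overlapped. Still, Aqp8 was above Slc26a3 and Slc9a2 above Cftr in 12 of 12 libraries, and Car1 above Car2 in 11 of 12. Slc9a3 and Aqp4 could not be ordered, with Slc9a3 higher in 6 of 12. The order was also loose for Car4 over Aqp8, Aqp4 over Slc26a2 and Slc26a2 over Slc9a2, each in 7 of 12. The members also differed in how much they varied. By CPM, the highest library exceeded the lowest 62.5-fold for Aqp4, 34.8-fold for Car1, 28.4-fold for Slc9a3 and 12.1-fold for Aqp8, but 3.01-fold for Car2 and 3.77-fold for Slc26a2.

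**Figure D1:**
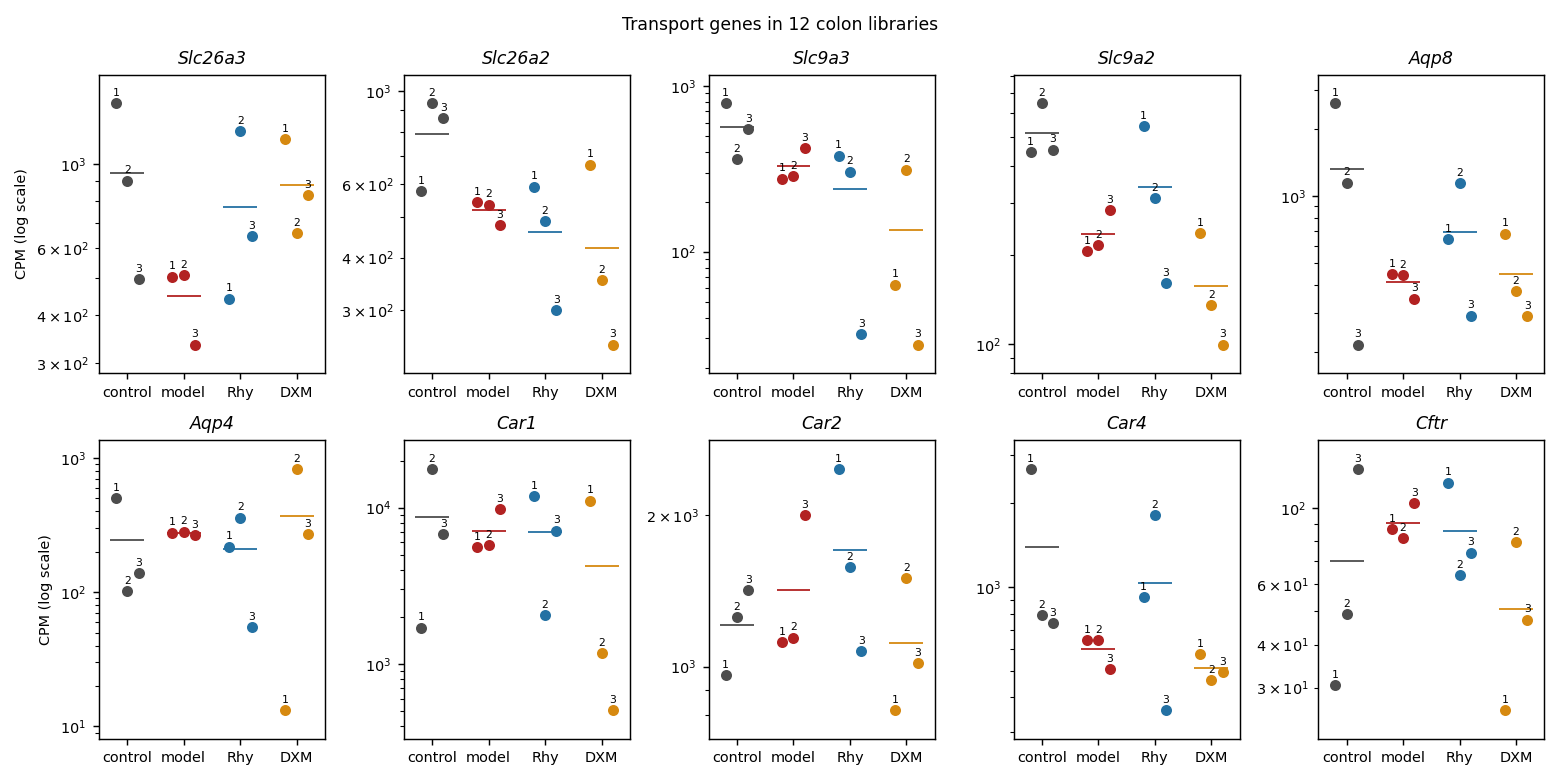
CPM of the 10 transport genes on a log scale in each of the 12 libraries, by group, with the replicate number above each point and the group mean as a line. Slc9a2 is lower in all 3 model libraries than in all 3 control libraries, while Aqp4 and Car1 spread widely within the control, Rhy and DXM groups.

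Promoter sequences were found for 5 of the 10 members, Slc26a3, Slc9a3, Aqp8, Car4 and Cftr, in the RefSeq table of GRCm38.p6, from 250 bases before to 50 after a start. Those of Slc26a3, Aqp8 and Car4 are printed because Aqp8 with Car4 and Slc26a3 with Aqp8 had the closest profiles over the libraries among these 5. Capitals mark letters of 5 motifs searched on both strands. These were GCGTG (the core read by the aryl hydrocarbon receptor), AGAACA (a glucocorticoid receptor half-site), CAAAG (a core of HNF4 sites), TTTATG (read by CDX factors) and TATAAA (the TATA box). Of 32851 promoters of this length, 32.4% held GCGTG, 19.0% AGAACA, 53.9% CAAAG, 11.9% TTTATG and 13.6% TATAAA.
Slc26a3 promoter, chr12:31437969-31438268, plus strand: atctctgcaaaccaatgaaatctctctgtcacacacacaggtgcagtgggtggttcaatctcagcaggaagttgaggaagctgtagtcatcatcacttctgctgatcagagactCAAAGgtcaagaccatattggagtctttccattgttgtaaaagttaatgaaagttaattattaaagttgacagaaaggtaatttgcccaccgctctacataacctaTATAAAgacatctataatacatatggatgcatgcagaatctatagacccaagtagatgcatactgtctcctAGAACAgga
Aqp8 promoter, chr7:123462044-123462343, plus strand: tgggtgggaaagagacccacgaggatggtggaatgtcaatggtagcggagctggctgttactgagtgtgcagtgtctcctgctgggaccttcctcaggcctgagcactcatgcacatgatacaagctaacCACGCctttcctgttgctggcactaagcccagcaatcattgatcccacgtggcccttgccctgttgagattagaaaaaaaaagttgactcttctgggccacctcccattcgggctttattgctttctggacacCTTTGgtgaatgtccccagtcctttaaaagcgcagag
Car4 promoter, chr11:84957504-84957803, plus strand: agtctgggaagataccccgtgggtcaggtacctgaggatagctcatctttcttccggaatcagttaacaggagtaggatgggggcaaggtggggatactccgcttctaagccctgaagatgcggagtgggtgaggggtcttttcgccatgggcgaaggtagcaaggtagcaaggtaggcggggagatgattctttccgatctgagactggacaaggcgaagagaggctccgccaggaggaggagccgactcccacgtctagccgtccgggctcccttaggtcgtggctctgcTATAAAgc
Slc26a3 held TATAAA 30 bases before the start, CAAAG 136 before it and AGAACA 41 after it, in a window with 39.3% G and C. This RefSeq start lies 47348 bases inside the gene as the count table delimits it. Aqp8 held GCGTG, on the other strand, 120 bases before the start and CAAAG, also on the other strand, 13 after it. Car4 held 1 motif, TATAAA, 42 bases after the start. In the unprinted windows, Slc9a3 held GCGTG at 1 position and Cftr at 2 positions. TTTATG was in 0 of the 5 windows. These matches describe letters only.

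Slc26a3 (ENSMUSG00000001225, chr12:31390871-31473917) is the apical chloride-bicarbonate exchanger of the colon, whose loss causes congenital chloride diarrhoea. It had 1442, 904 and 498 CPM in control 1 to 3, 505, 511 and 335 in model 1 to 3, 443, 1219 and 646 in Rhy 1 to 3 and 1162, 657 and 828 in DXM 1 to 3. The 3 model libraries were among the lowest, but control 3 and Rhy 1 lay between them, and all 3 DXM libraries lay above all 3 model libraries. The log2 fold change was -1.07 (standard error, SE, 0.44) in model against control, a 2.10-fold lower level (edgeR adjusted p 0.493). It was 0.77 (SE 0.43) in Rhy against model and 0.97 (SE 0.44) in DXM against model, with edgeR adjusted p of 1.000 and 0.646. These comparisons share the model libraries, so a low value there lowers the first and raises the others. Without control 1 the first was -0.64, and without Rhy 2 the second was 0.27. With model 1 and model 2 summed, the values were -1.17, 0.87 and 1.06. Without the libraries low in Hoxb13 they were -1.24, 0.90 and 0.81.

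Slc26a2 (ENSMUSG00000034320, chr18:61192919-61211612), a sulfate transporter of the same family that supplies sulfate to mucus and matrix, had 577, 935 and 862 CPM in control 1 to 3, 542, 536 and 479 in model, 591, 488 and 300.0 in Rhy and 667, 353 and 248 in DXM. Every model library lay under every control library, and 7 of the 9 libraries from mice given DSS lay under the lowest control. The exceptions were Rhy 1 and DXM 1. In model against control the log2 fold change was -0.61 (SE 0.36; adjusted p 0.607 in edgeR). With all 9 DSS libraries against control it was -0.77 (SE 0.28; adjusted p 0.207 in edgeR), and an exact permutation of the libraries gave p = 0.0273. Without the libraries low in Hoxb13 these values were -0.53 and -0.78, and with model 1 and model 2 summed -0.64 and -0.77. The FPKM ratio of Slc26a3 to Slc26a2 was 4.86, 1.88 and 1.12 in control 1 to 3, 1.81, 1.85 and 1.36 in model, 1.45, 4.85 and 4.18 in Rhy and 3.38, 3.61 and 6.49 in DXM. Control 1, Rhy 2 and Rhy 3 thus lay within the DXM range.

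Of other anion exchangers and bicarbonate cotransporters, 8 of 13 were tested and 0 passed the adjusted threshold in any of the 4 comparisons in edgeR, with 1 lower at an unadjusted p under 0.05 (Slc4a2, in all DSS libraries against control). Of these 8, in model against control, 5 were lower (median log2 fold change -0.19, against 0.01 over all genes tested). Slc4a2, a basolateral chloride-bicarbonate exchanger, was the gene of this list with the smallest p in all DSS libraries against control, at a log2 fold change of -0.84 (SE 0.34; adjusted p 0.246 in edgeR). It was also that gene in DXM against model, at -0.80 (SE 0.44). In the other comparisons it was a gene at a low level, Slc26a1 (at most 10.5 CPM) and Slc26a6 (at most 13.7 CPM).

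Slc9a3 (ENSMUSG00000036123, chr13:74121457-74169442), also called NHE3, is the sodium-proton exchanger of the absorptive brush border. It had 782, 360.5 and 549 CPM in control 1 to 3, 275, 285 and 422 in model, 379.9, 303 and 31.7 in Rhy and 63.4, 312 and 27.5 in DXM. Rhy 3, DXM 1 and DXM 3 stood far below the other 9 libraries, while Rhy 1, Rhy 2 and DXM 2 lay within the range of the model and control libraries. Its log2 fold change was -1.37 (SE 0.65) in all DSS libraries against control, with an edgeR adjusted p of 0.312 (exact permutation p = 0.0955). In model against control it was -0.78 (SE 0.86) and in DXM against model -1.29 (SE 0.87). The DXM value was -2.85 without DXM 2, and in Rhy against model the value changed from -0.46 to 0.06 without Rhy 3. Without the libraries low in Hoxb13 the values in model, Rhy and DXM order were -1.06, -0.71 and -1.04, and with model 1 and model 2 summed -0.68, -0.56 and -1.39.

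Slc9a2 (ENSMUSG00000026062, chr1:40680574-40769273), or NHE2, is another apical sodium-proton exchanger of the colon. Its level was 445, 647 and 452 CPM in control 1 to 3, 206, 216 and 284 in model, 544, 310.5 and 161 in Rhy and 237, 135 and 99.9 in DXM. All model and all DXM libraries lay under all control libraries, and Rhy 1 alone among the 9 DSS libraries lay above the lowest control. The group means were 515 ± 115 CPM (SD, n = 3) in control and 235 ± 42.2 CPM (SD, n = 3) in model. This 2.19-fold lower level was a log2 fold change of -1.13 (SE 0.42; adjusted p 0.479 in edgeR). Exact permutation of the libraries gave p = 0.1, the smallest that 3 libraries against 3 allow. The value was -1.06 with model 1 and model 2 summed and -1.41 without the libraries low in Hoxb13. In Rhy against model it was 0.52, but 0.19 without those libraries, 0.0039 without Rhy 1 alone and 0.86 without Rhy 3.

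Over all 9 DSS libraries against control, the log2 fold change of Slc9a2 was -1.15 (SE 0.32; adjusted p 0.140 in edgeR), a 2.22-fold lower level, and the exact permutation p was 0.0227 where the smallest possible is 0.00455. DESeq2 on the same 12 libraries gave -1.19 with an adjusted p of 0.0241, which made Slc9a2 the only member past the adjusted threshold in any setting run. DESeq2 called 734 genes in that comparison and edgeR 0. Without the libraries low in Hoxb13, which include Rhy 1, the edgeR value was -1.48 (adjusted p 0.0529), and with model 1 and model 2 summed it was -1.12 (adjusted p 0.249). Its adjusted p ran from 0.0241 to 0.451 over all settings.

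The list of other sodium-proton exchangers and their adaptors had 11 of 14 genes tested, with 9 lower in model against control (median log2 fold change -0.37). Slc9a3r1, the scaffold NHERF1 that holds NHE3 in the brush border, had the smallest p there. Its levels were 999, 1005 and 517 CPM in control 1 to 3, 347, 317 and 516 in model, 627, 529 and 438 in Rhy and 457, 243 and 198 in DXM. Model libraries were all lower than control libraries, by a narrow margin between model 3 and control 3. The log2 fold change was -1.10 (SE 0.36; adjusted p 0.479 in edgeR), and -1.08 (SE 0.27; adjusted p 0.139 in edgeR) over all DSS libraries. Ezr, which encodes ezrin and links NHERF1 to actin, had the smallest p of the list in Rhy against model, at 0.54 (SE 0.23; adjusted p 1.00 in edgeR). In edgeR, 0 genes of the list passed the adjusted threshold. At an unadjusted p under 0.05 there were 3 in model against control (Slc9a3r1, Chp1 and Chp2, all lower) and 1 higher and 1 lower in Rhy against model. There were 1 lower in DXM against model and 4 lower in all DSS libraries against control. Of all genes tested, 9.62%, 3.72%, 7.69% and 17.0% were at that level in these 4 comparisons, in the same order.

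Aqp8 (ENSMUSG00000030762, chr7:123462291-123468004) is a water channel of the surface colonocyte. Its level was 2606, 1151 and 216 CPM in control 1 to 3, 449, 442 and 347 in model, 642, 1141 and 291 in Rhy and 679, 374 and 289.7 in DXM. Control held both the highest library, control 1, and the lowest, control 3, so that the control range enclosed all other libraries. The group mean was 1324 ± 1204 CPM (SD, n = 3) in control and 413 ± 56.6 CPM (SD, n = 3) in model. Model against control gave a log2 fold change of -1.68 (SE 0.71; adjusted p 0.500 in edgeR), and the exact permutation p was 0.4. Control 1 and control 3 pulled it in opposite directions. It was -0.73 without control 1, -2.21 without control 3, -2.11 without the libraries low in Hoxb13 and -1.74 with model 1 and model 2 summed.

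Aqp8 did not separate the drug groups from the model group. The log2 fold change was 0.75 (SE 0.70) in Rhy against model and 0.12 (SE 0.69) in DXM against model, with edgeR adjusted p of 1.000 and 0.977. The first was 0.18 without Rhy 2, and the second turned to -0.31 without DXM 1.

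Aqp4 (ENSMUSG00000024411, chr18:15389394-15403684), a basolateral water channel, had 500.1, 102 and 139 CPM in control 1 to 3, 279, 283 and 266 in model, 219, 359 and 54.7 in Rhy and 13.3, 832 and 269.9 in DXM. The lowest and the highest library were both in the DXM group. The model libraries were close to each other and lay inside the range of every other group. Standard errors of its log2 fold changes were at least 0.84 in the 4 comparisons, larger than each of the fold changes, and leaving out DXM 2 turned the DXM value from 0.43 to -0.96. Its model value was 0.16, and -0.13 without the libraries low in Hoxb13. The ratio of Aqp8 to Aqp4 in FPKM accordingly ran from 1.44 in DXM 2 to 164 in DXM 1, and was 4.20 to 5.18 in the model libraries. Of 9 other aquaporins, Aqp1 and Aqp11 were tested, and 0 of these passed an adjusted or an unadjusted p under 0.05 in edgeR in any comparison. Aqp11 was the one with the smaller p in 3 of 4 comparisons, at -0.47 (SE 0.50) in model against control, -0.63 in DXM against model and -0.61 in all DSS libraries against control, and Aqp1 in Rhy against model at 0.40 (SE 0.57).

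Car1 (ENSMUSG00000027556, chr3:14766216-14808368) is a cytosolic carbonic anhydrase that is abundant in colonocytes and red cells. It had 1707, 17736 and 6762 CPM in control 1 to 3, 5590.4, 5762 and 9832 in model, 11906, 2051 and 7136 in Rhy and 11102, 1169.8 and 509 in DXM. Control 1, Rhy 2, DXM 2 and DXM 3 were the low libraries and control 2 the highest, so each group but model spanned more than a 5-fold range. All 4 fold changes were smaller than their standard errors, at -0.31 (SE 1.05) in model against control and -0.73 (SE 1.05) in DXM against model. The first was 0.74 without control 2, and the second -3.07 without DXM 1. Without the libraries low in Hoxb13 they were -0.82 and -0.40, and with model 1 and model 2 summed -0.17 and -0.87. An erythroid list of 8 genes (4 tested, most abundant gene Hba-a1, no gene at 0 in every library) summed to 16.1 CPM in control 2, where Car1 was highest, and to 61.0 CPM in control 1. In all 12 libraries its sum was between 16.1 and 92.6 CPM, under the level of Car1. The part of red cells in the Car1 values was not tested.

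Car4 (ENSMUSG00000000805, chr11:84957786-84966044) is a carbonic anhydrase anchored on the outer face of the apical membrane and is also made by capillaries. It had 2667, 792 and 739 CPM in control 1 to 3, 646, 643 and 505 in model, 922, 1813 and 361 in Rhy and 573, 463 and 493 in DXM. Control 1 and Rhy 2 stood above the rest. All model and all DXM libraries lay under all control libraries, by a margin that was narrow beside control 2 and control 3. In model against control the log2 fold change was -1.23 (SE 0.56; adjusted p 0.517 in edgeR, and exact permutation p = 0.1), and in all DSS libraries against control -1.04 (SE 0.43; adjusted p 0.249 in edgeR). Without control 1 these values shrank to -0.36 and -0.17. Without the libraries low in Hoxb13 they were -1.46 and -1.30, and with model 1 and model 2 summed -1.28 and -1.06. All 6 genes of an endothelial list (most abundant gene Plvap, none at 0) were detected in every library, and their sum was 145, 78.4 and 114 CPM in control 1 to 3, 90.2, 87.0 and 99.1 in model, 50.6, 168 and 101 in Rhy and 197, 99.5 and 166 in DXM. The highest sum was in DXM 1, and the part of endothelium in the result was not tested.

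Car1 and Car4 did not follow each other across libraries. The FPKM ratio of Car1 to Car4 was 35.3 in control 2, 14.4 in control 3 and 1.01 in control 1, and 20.3, 1.78 and 31.1 in Rhy 1 to 3. It was 13.6 to 30.7 in the model libraries and 30.5, 3.98 and 1.63 in DXM 1 to 3. The libraries with a ratio under 4 were control 1, Rhy 2, DXM 2 and DXM 3. In the profiles of standardised log2 CPM the distance between Car1 and Car4 was 1.45 SD (root mean square over the 12 libraries), against 0.549 SD between Aqp8 and Car4. The distance that unrelated profiles would have was not computed, so this value does not say that Car1 and Car4 moved in opposite directions.

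**Figure D2:**
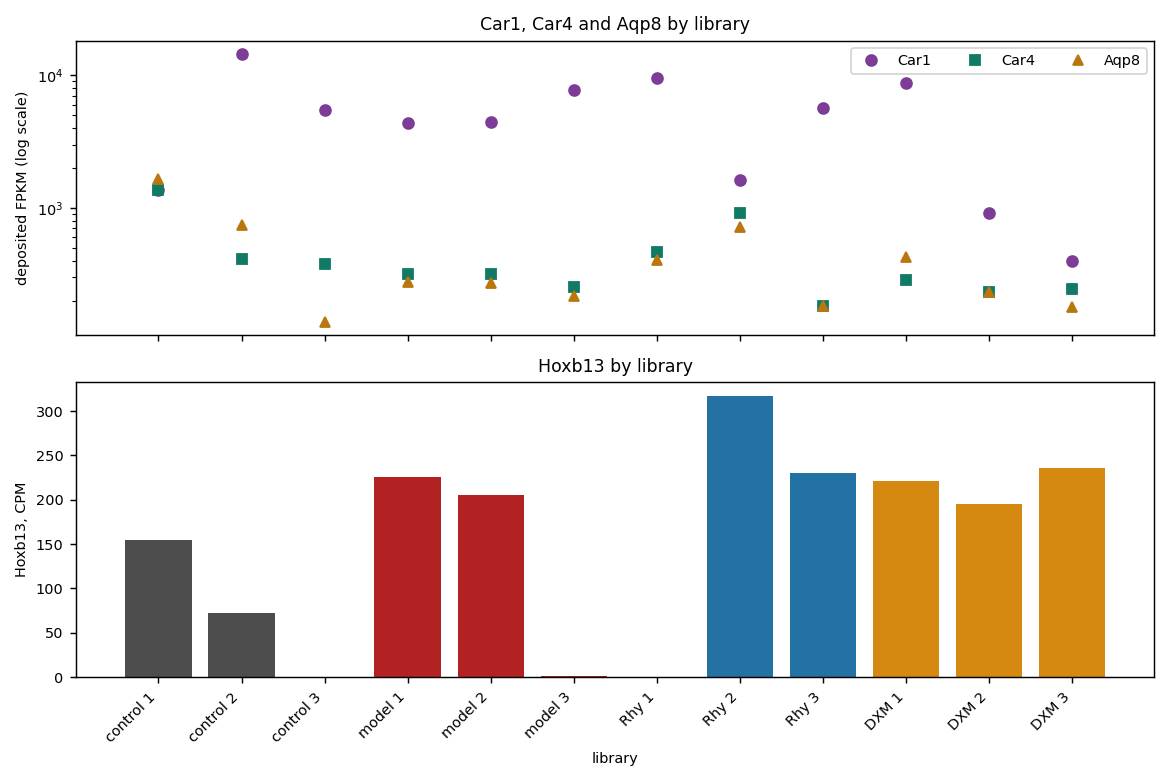
Deposited FPKM of Car1, Car4 and Aqp8 on a log scale (upper panel) and CPM of Hoxb13 (bars from 0, lower panel) in each of the 12 libraries, with the bars coloured by group. Car1 is near Car4 in control 1 and far above it in control 2, and Hoxb13 is near 0 in control 3, model 3 and Rhy 1.

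Car2 (ENSMUSG00000027562, chr3:14886273-14900770), the cytosolic carbonic anhydrase of many tissues and a neighbour of Car1 on the chromosome, ranged from 820.4 CPM in DXM 1 to 2470.1 CPM in Rhy 1. Rhy 1 and model 3, both low in Hoxb13, were its highest libraries. Its log2 fold changes were 0.23, 0.27, -0.35 and 0.20 in the 4 comparisons (SE 0.30 to 0.36), and the model value was -0.01 without the libraries low in Hoxb13 and 0.37 with model 1 and model 2 summed. Of 13 other carbonic anhydrases, 9 were tested, and in edgeR 0 passed the adjusted threshold and 1, Car9, an unadjusted p under 0.05 in each comparison but model against control, where 0 did. Car9, a membrane-bound enzyme induced by hypoxia, had the smallest p of the list in 3 of 4 comparisons. It had 39.7, 63.4 and 44.8 CPM in control 1 to 3, 49.2, 51.9 and 47.7 in model, 36.6, 35.4 and 29.9 in Rhy and 34.0, 29.9 and 22.5 in DXM. All Rhy and all DXM libraries were lower than all model libraries. Its log2 fold change was -0.78 (SE 0.21; adjusted p 0.622 in edgeR) in DXM against model and -0.55 (SE 0.21; adjusted p 1.00 in edgeR) in Rhy against model. For model against control it was Car3, an enzyme of muscle and fat, with 68.3 CPM in model 3 and at most 1.27 CPM in model 1 and model 2.

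Cftr (ENSMUSG00000041301, chr6:18170687-18322768), the apical chloride and bicarbonate channel, had 30.5, 49.1 and 129.9 CPM in control 1 to 3, 86.6, 81.7 and 103 in model, 118, 63.7 and 74.1 in Rhy and 25.9, 79.3 and 47.3 in DXM. Control 3, Rhy 1 and model 3, the libraries low in Hoxb13, were its 3 highest. All DXM libraries lay under all model libraries. DXM against model gave a log2 fold change of -0.83 (SE 0.50; adjusted p 0.688 in edgeR, and exact permutation p = 0.1, the smallest possible). In model against control it was 0.37 (SE 0.50) with all libraries and 1.04 without those low in Hoxb13. With model 1 and model 2 summed, the DXM and model values were -0.88 and 0.42, and without those low in Hoxb13 the DXM value was -0.71. Over all DSS libraries against control it was 0.07, and -0.29 without control 1.

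All 16 measured genes of a chloride secretion list were tested, 12 lower in model against control (median log2 fold change -0.24) and 0 past the adjusted threshold in any comparison in edgeR. At an unadjusted p under 0.05 there were 2 in model against control and 1 in Rhy against model, all lower. There were 1 higher and 1 lower in DXM against model, and 1 higher and 3 lower in all DSS libraries against control. Of all genes tested, 9.62%, 3.72%, 7.69% and 17.0% were at that level in these 4 comparisons, in the same order. Clcn2, a basolateral chloride channel, had the smallest p in model against control and in all DSS libraries against control. Its levels were 775, 483 and 317 CPM in control 1 to 3, 246, 247 and 272 in model, 347, 242 and 175 in Rhy and 223, 183 and 134 in DXM. Only Rhy 1 of the 9 DSS libraries exceeded the lowest control. Its log2 fold changes were -1.04 (SE 0.34; adjusted p 0.470 in edgeR) and -1.21 (SE 0.26; adjusted p 0.137 in edgeR). In DXM against model it was Kcne3, a potassium channel subunit, at 1.11 (SE 0.37; adjusted p 0.622 in edgeR), and in Rhy against model Adcy6, an adenylyl cyclase, at -0.80 (SE 0.30).

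Further lists covered transport coupled to that of the members and its regulators, and in edgeR 0 of their genes passed the adjusted threshold. Of 12 genes for electrogenic sodium, potassium and proton transport, 11 were tested. Those at an unadjusted p under 0.05 were 1 lower in model against control, 0 in Rhy against model and 1 higher in DXM against model. There were 2 lower and 2 higher in all DSS libraries against control. Of all genes tested, 9.62%, 3.72%, 7.69% and 17.0% were at that level in these 4 comparisons, in the same order. Nedd4l, a ubiquitin ligase that removes sodium channels, had the smallest p in model against control at a log2 fold change of -0.72 (SE 0.29) and in all DSS libraries against control at -0.80 (SE 0.23). Scnn1g, a sodium channel subunit, had it in DXM against model at 3.98 (SE 1.22), and Scnn1a, another subunit, had it in Rhy against model at 0.76 (SE 0.52). Scnn1g was low, at 1.38, 1.94 and 0.179 CPM in model 1 to 3 and 40.8, 4.19 and 10.7 CPM in DXM 1 to 3, with DXM 1 far above the others. For short chain fatty acid transport, 6 of 7 genes were tested and 0 passed an unadjusted p under 0.05 in any comparison. The genes with the smallest p were Bsg (-0.23, model against control), Slc5a8 (-0.41, Rhy against model) and Slc16a1 (-0.66, DXM against model, and -0.45, all DSS libraries against control). All 14 listed transcription factors of the colon epithelium were tested. Those at an unadjusted p under 0.05 were all lower. They were 1 in model against control, 3 in DXM against model, 3 in all DSS libraries against control and 0 in Rhy against model. Hnf4a had the smallest p in model against control at -0.55 (SE 0.21) and in all DSS libraries against control at -0.61 (SE 0.17).

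Model against control asks what goes with DSS colitis alone. Of the 10 members, 7 were lower and 3 (Aqp4, Car2 and Cftr) higher in the model libraries, with a median log2 fold change of -0.70 against 0.01 over all genes tested. No member passed an adjusted p under 0.05 in edgeR, as 0% of the 16904 genes did. At an unadjusted p under 0.05, 3 members were lower (Slc26a3, Slc9a2 and Aqp8) and 0 higher, where 4.51% of all genes were lower and 5.11% higher. Members whose groups did not overlap were Slc26a2, Slc9a2 and Car4, all lower, and 0 were higher, against 6.61% of all genes lower and 10.4% higher. With DESeq2 size factors in place of TMM, all genes split into 666 higher and 980 lower (40.5% higher), against 863 and 763 (53.1%) with TMM, and 4 members were then lower at that level. Leaving out single libraries changed the 3 calls. Slc9a2 alone was left without control 1 or without model 3, Slc26a3 alone without model 1 or without model 2, and Slc9a2 was replaced by Car4 without control 2. Without control 3, Car4 joined the 3 and Cftr was higher. With model 1 and model 2 summed, Slc9a2 and Aqp8 lost the call and Slc26a3 alone was left. Without the 3 libraries low in Hoxb13 the 3 calls remained and Cftr was higher. DESeq2's own test called 46 genes at an adjusted p under 0.05 and 0 members. Of the surface colonocyte list, 9 of 10 genes were lower in model (median log2 fold change -0.86), and of the epithelial list 10 of 10 (median -0.35), while 8 of 8 genes of a cycling cell list were higher (median 1.06). An acute colitis list (most abundant gene Reg3b) summed to 458, 163 and 179 CPM in control 1 to 3. In model 1 to 3 it summed to 6230, 6373 and 1441 CPM. Of its 9 tested genes, 3 were higher and 6 lower (median -0.48). A fat cell list had 5 of 6 genes higher (median 1.89), with 231.7 CPM in model 3 and 21.2 and 21.9 in model 1 and 2. B and plasma cell genes summed to 7018, 923 and 2195 CPM in control and 333, 340 and 1660 in model, 4 of 7 lower. Their part in the result was not tested.

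**Figure D3:**
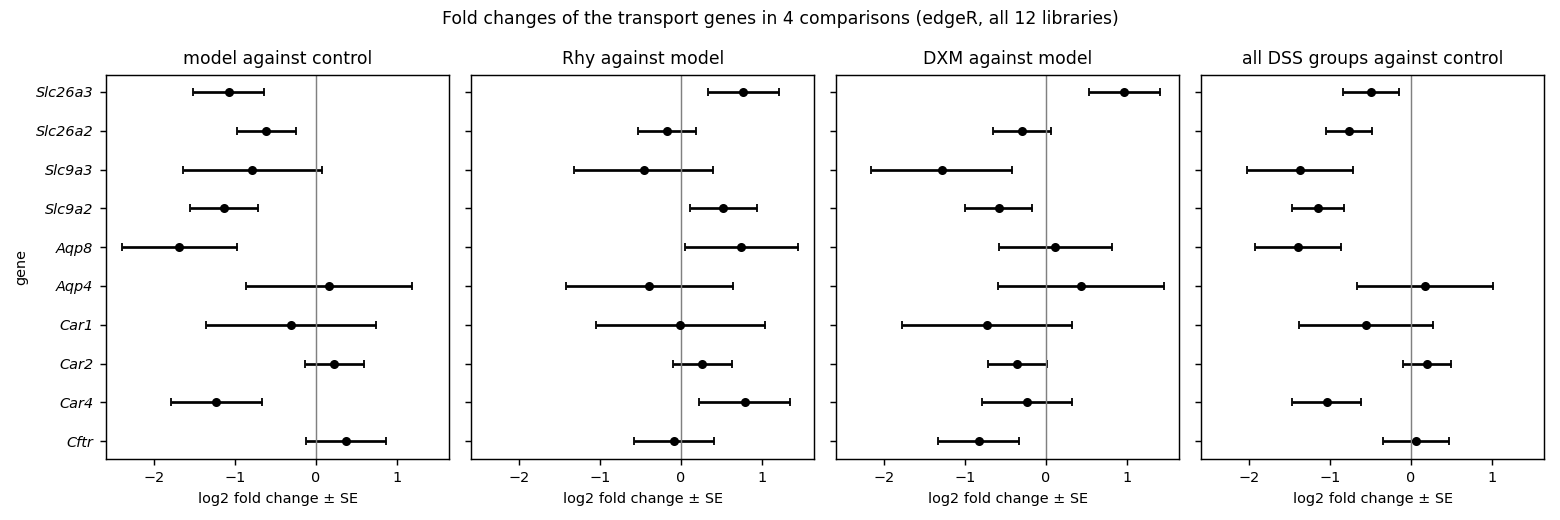
Log2 fold change with its standard error of each transport gene in the 4 comparisons, from the edgeR fit of all 12 libraries. Slc26a3, Slc26a2, Slc9a2, Aqp8 and Car4 lie below 0 by more than 1 standard error in model against control, and Slc26a3 lies above 0 in both drug comparisons.

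Rhy against model asks what goes with Rhy under DSS. It gave 5 members higher and 5 lower (median log2 fold change 0.13, against -0.01 over all genes). The largest were Car4 at 0.79 (SE 0.56), Slc26a3 at 0.77 and Aqp8 at 0.75, each highest in Rhy 2. Without Rhy 2 they were 0.10, 0.27 and 0.18. No member passed an adjusted p under 0.05 in edgeR, as 0% of all genes did. Neither did any pass an unadjusted p under 0.05, where 1.74% of all genes were higher and 1.98% lower. The groups overlapped for all 10 members, against 5.51% of all genes apart and higher and 6.02% apart and lower. Without Rhy 1 or without the 3 libraries low in Hoxb13, Slc26a3 reached an unadjusted p under 0.05, and without Rhy 3 Slc9a2 and Car4 did. DESeq2 called 5 genes at an adjusted p under 0.05 and 0 members. Of the surface colonocyte list 8 of 10 genes were higher (median log2 fold change 0.29), and of the epithelial list 9 of 10 (median 0.28). A small intestine list (10 genes, 7 tested, most abundant gene Fabp2, none at 0 in every library) had 6 of 7 higher, with a median of 1.07 and 3 at an unadjusted p under 0.05. It summed to 656, 1864 and 1301 CPM in control 1 to 3, 293, 300.0 and 1171 in model, 1528, 320.1 and 2173 in Rhy and 802, 365 and 64.1 in DXM. All 7 genes of a T cell list (most abundant gene Lck, none at 0 in every library) were lower, with a median of -0.84 and 2 at an unadjusted p under 0.05, and summed to 55.4, 35.3 and 32.8 CPM in control 1 to 3, 33.1, 33.1 and 45.5 in model, 11.0, 27.0 and 30.0 in Rhy and 40.6, 19.6 and 41.9 in DXM. In edgeR, 0 genes of these lists passed the adjusted threshold, and their part in the result was not tested.

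DXM against model asks what goes with DXM under DSS. Slc26a3 was 1.96-fold higher, while 7 of the 10 members were lower (median log2 fold change -0.32, against -0.01 over all genes), among them Slc9a3 and Cftr. With edgeR, 0% of all genes and 0 members passed an adjusted p under 0.05. At an unadjusted p under 0.05, 1 member was higher (Slc26a3) and 0 lower, where 4.89% of all genes were higher and 2.8% lower. The groups did not overlap for 1 member that was higher (Slc26a3) and 1 that was lower (Cftr), against 10.4% and 12.2% of all genes. The Slc26a3 call was lost with model 1 and model 2 summed, without the 3 libraries low in Hoxb13, and without each of 7 single libraries (control 2, model 1, model 2, model 3, Rhy 3, DXM 1 and DXM 3). Its log2 fold change was 0.72 to 1.14 over the libraries left out, 1.06 with the pair summed and 0.81 without the 3 libraries. Without DXM 1, Slc26a2, Slc9a2 and Car1 were lower at an unadjusted p under 0.05, and without DXM 2, Slc9a3 and Cftr were. DESeq2 called 52 genes at an adjusted p under 0.05 and 0 members.

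Markers of other cells of the colon wall also differed in DXM against model, with 0 past the adjusted threshold in edgeR. All 10 genes of a smooth muscle list (most abundant gene Myh11, none at 0) were higher, with a median log2 fold change of 0.68, 5 of them at an unadjusted p under 0.05. They summed to 7339.9, 4228 and 3744 CPM in control 1 to 3, 5624, 5537 and 4332 in model, 6659, 7486 and 7202 in Rhy and 9044, 5930.1 and 10508 in DXM, so DXM libraries were all above model libraries. In Rhy against model 9 of the 10 were higher (median 0.37). The endothelial list had 6 of 6 genes higher in DXM against model (median 0.81), while 8 of 10 epithelial genes (median -0.20) and 7 of 10 surface colonocyte genes (median -0.10) were lower. Of 9 neutrophil and macrophage genes (most abundant gene Cd14, none at 0 in every library), 8 were higher (median 1.27), 3 of them at an unadjusted p under 0.05, and 8 were lower in model against control (median -0.73). They summed to 1347, 478 and 307 CPM in control 1 to 3, 582, 583 and 392 in model, 251, 837 and 719 in Rhy and 637, 729 and 1120.4 in DXM. The acute colitis list, at 163 to 458 CPM in control, summed to 6230, 6373 and 1441 CPM in model 1 to 3. It summed to 188, 266 and 1499 CPM in Rhy 1 to 3 and 222, 1564 and 93.8 in DXM 1 to 3. In DXM against model, 5 of its 9 tested genes were higher and 4 lower (median 0.32). Their part in the result was not tested.

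All DSS libraries against control pools the model, Rhy and DXM groups and shares its libraries with the comparisons above. Again 7 members were lower and 3 higher (median log2 fold change -0.66, against 0.01 over all genes). In edgeR, 0 members and 0% of all genes passed an adjusted p under 0.05. At an unadjusted p under 0.05, 4 members were lower (Slc26a2, Slc9a2, Aqp8 and Car4) and 0 higher, where 9.19% of all genes were lower and 7.86% higher. No member had all 9 DSS libraries on 1 side of all 3 control libraries, against 1.33% of all genes lower and 1.95% higher. Slc9a2 came closest, with 8 of 9 DSS libraries under the lowest control. Without control 1 the members lower at that level were Slc26a2 and Slc9a2 alone. Slc26a2 was lost without the 3 libraries low in Hoxb13 and without control 2, and without control 3 it was replaced by Slc26a3, with Cftr higher. Slc9a3 joined without Rhy 1, and took the place of Car4 without DXM 2. Of the surface colonocyte list, 8 of 10 genes were lower (median log2 fold change -0.83), and of the epithelial list 9 of 10 (median -0.32), and their part in the result was not tested.

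The members did not share 1 profile. In log2 CPM standardised per gene over the 12 libraries, the closest pairs were Slc26a2 and Slc9a2 (root mean square distance 0.512 SD), Aqp8 and Car4 (0.549 SD), Car2 and Cftr (0.689 SD) and Slc26a3 and Aqp8 (0.743 SD). Slc26a3 and Cftr, the absorptive exchanger and the secretory channel, were the farthest apart of the 45 pairs at 1.85 SD. DXM 3 and Rhy 3 were low in Slc26a2, Slc9a3 and Slc9a2, whereas Rhy 1 was high in Slc9a2, Car2 and Cftr. Among the other 16894 genes tested, the 10 closest to the mean profile of the members were Endod1 (0.339 SD), Cldn23, Cryl1, Kdf1, Dhcr7, Dpep1, Slc13a2, Tst, Dhrs11 and Rnf181 (0.397 SD). The single closest gene to a member was Upk1a for Slc9a2 (0.152 SD), Clic5 for Car4 (0.247 SD), Stard7 for Cftr (0.263 SD), Dnmbp for Slc26a2 (0.266 SD) and Lin37 for Aqp8 (0.269 SD). It was Gm14303 for Slc26a3 (0.353 SD), Plb1 for Slc9a3 (0.357 SD), Slc25a35 for Car2 (0.407 SD) and Sox21 for Aqp4 (0.503 SD).

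**Figure D4:**
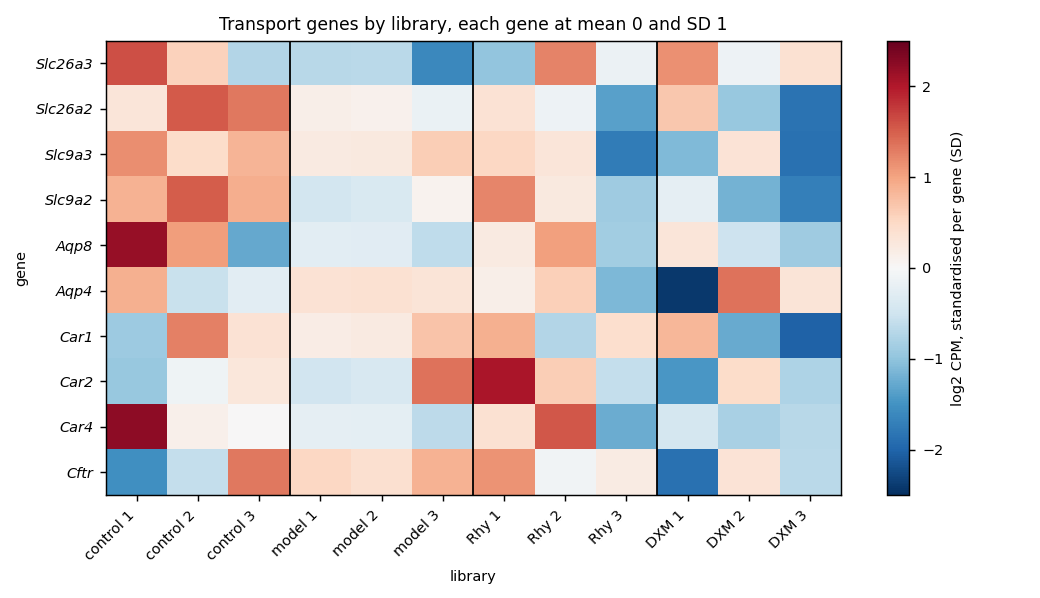
Log2 CPM of each transport gene in each library, standardised to mean 0 and SD 1 per gene, with lines between the groups. Control 1 is high in Slc26a3, Aqp8 and Car4 and low in Car1 and Cftr, and model 1 and model 2 are nearly the same.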

How the data were processed

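The authors deposited counts per gene and FPKM for the 12 libraries. By the submitters' notes, reads were aligned to mm10 with HISAT2 2.0.5 and counted with featureCounts 1.5.0-p3, and DESeq2 1.16.1 was used. The strand setting is not stated, so genes that overlap on opposite strands cannot be told apart, and genes overlapping a member had at most 8 counts in any library. No column lay outside the sample list (0 columns). Counts of all 12 libraries were fitted together in edgeR 4.0.16 (R 4.3.3) by quasi-likelihood with TMM scaling, a filter at a minimum count of 10 (filterByExpr) and Benjamini-Hochberg adjustment over the 16904 genes kept. A standard error is the log2 fold change over the square root of its F statistic. CPM use the TMM-scaled library sizes, and log2 CPM a prior count of 2. The 10 members and the gene lists were chosen with earlier results of these data known. Genes named beside the members come from a rule, which takes, in each pathway list, the gene with the smallest p in each comparison, and the 10 genes closest to the mean profile of the members with the closest to each member. Alternatives were DESeq2 1.42.0, its size factors, limma 3.58.1 on the deposited FPKM, no filter, only the groups compared, a replicate block, model 1 and model 2 summed, a term for Hoxb13, and leaving out each library. The code was checked on simulated data.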

Additional observations from a re-analysis of the deposited data

How the results depend on the processing

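Of 870 log2 fold changes of the 10 genes under the alternatives, 830 kept their direction and their side of the threshold, 39 changed sign and 1 passed the threshold. That 1 was Slc9a2 in all DSS groups against control with DESeq2, at -1.19 (adjusted p 0.0241, range over its settings 0.0241 to 0.451), so the members past an adjusted p under 0.05 were 1 there. The replicate block assumes that equal numbers pair samples across groups. The labels do not say that they do. Above a correlation of 0.1 were 6 of 18 pairs with the same number and 15 of 36 pairs with other numbers. These correlations, of deviations from means of 3 libraries, cannot tell whether samples were paired.

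Counts of all genes at an adjusted p under 0.05 were 0 in each comparison with the settings of the report and differed under other settings. DESeq2, which also used its own size factors and more genes (29929 against 16904), gave 46 in model against control, 5 in Rhy against model, 52 in DXM against model and 734 in all DSS groups against control. Genes with any count gave 1 in model against control and 44 in all DSS groups against control. Only the groups compared gave 1 in model against control and 2 in DXM against model. Limma on log2(FPKM + 0.1) gave 2 in Rhy against model and 2 in DXM against model. Without the 3 libraries low in Hoxb13, chosen after seeing the data, the counts were 2 in DXM against model and 350 in all DSS groups against control. Leaving out single libraries gave 0 to 1 in model against control and in Rhy against model, and 0 to 27 in all DSS groups against control.

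Members at an unadjusted p under 0.05, 3 in model against control (9.62% of all genes), were 5 with only the groups compared (9.92%) and 1 with model 1 and model 2 summed (4.99%). Rhy against model, at 0 (3.72%), gave 1 with a term for Hoxb13 (5.58%) and 1 without the 3 libraries low in Hoxb13 (8.42%). DXM against model, at 1 (7.69%), gave 0 with model 1 and model 2 summed (4.24%) and 0 without the 3 libraries (9.11%). Leaving out single libraries gave 1 to 5 in model against control, the 5 being without control 3 (16.2% of all genes), 0 to 2 in Rhy against model, 0 to 3 in DXM against model and 2 to 5 in all DSS groups against control.

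Signs changed mostly for values near 0. Limma in model against control gave Car1 0.15 with either added constant (0.15 and 0.15), and without the 3 libraries low in Hoxb13 Aqp4 was -0.13 and Car2 -0.0102. In Rhy against model, Car1 was 0.0215 with DESeq2 size factors and 0.0213 with DESeq2. In DXM against model, Aqp4 was -0.78 and -0.91 with limma at an added 1 and 0.1, and Aqp8 was -0.0172 with the replicate block and -0.13 with the Hoxb13 term. In all DSS groups against control, Aqp4 was -0.0453 and -0.0812 with limma and -0.13 without the 3 libraries. The cause was not tested.

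Leaving out single libraries gave, in model against control, Aqp4 -0.21 to 1.19, Car1 -0.79 to 0.74 and Car2 -0.15 to 0.38. In Rhy against model it gave Slc26a2 -0.40 to 0.0576, Slc9a3 -0.97 to 0.0611, Aqp4 -1.01 to 0.0683, Car1 -0.62 to 0.43, Car2 -0.10 to 0.62 and Cftr -0.39 to 0.0889. In DXM against model it gave Aqp8 -0.31 to 0.35 and Aqp4 -0.96 to 1.00, and in all DSS groups against control Aqp4 -0.29 to 1.21, Car1 -1.33 to 0.49 and Cftr -0.29 to 0.86. With 3 libraries against 3, an exact permutation p cannot be under 0.1. Depth limits the members little, since the lowest count was 194.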

Other observations

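Other lists of marker genes differed between the libraries. The 8 cycling cell genes (most abundant gene Mki67, none at 0 in every library) summed to 263, 183 and 310.2 CPM in control 1 to 3, 485, 498 and 385 in model, 201, 362 and 461 in Rhy and 175, 512 and 309 in DXM. All 8 were higher in model against control and lower in Rhy against model and in DXM against model, and these comparisons share the model libraries. The 8 goblet cell genes (most abundant gene Zg16, none at 0) summed to 1449 CPM in Rhy 1 and 1745 CPM in control 2, and to 5129 to 13651 CPM in the other 10 libraries. All 8 fibroblast genes (most abundant gene Col3a1) were lower in model against control (median log2 fold change -0.59) and higher in DXM against model (median 1.09), and 7 of 8 were higher in Rhy against model (median 0.60). In edgeR, 0 genes of these 3 lists passed an adjusted p under 0.05. At an unadjusted p under 0.05, 5 cycling cell genes were higher in model against control, 3 fibroblast genes were higher in Rhy against model, and 1 goblet cell and 7 fibroblast genes were higher in DXM against model.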
